A study of Homo sapiens with 6 samples.

Results

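Receptor tyrosine kinases were examined in the RNA-seq libraries of MDA-MB-231 cells, an established human line of triple-negative breast cancer, treated with nitidine chloride (NCD), a plant alkaloid. The set of 47 genes was given by name and matched by symbol to the Ensembl identifiers of the count files, and each matched 1 of the 63241 identifiers. Cells labelled wild type, grown in DMEM with fetal calf serum, received 5 μM NCD or, as the vehicle control, 0.1% DMSO for 24 h, and 3 libraries per group were sequenced from total RNA. The cells are 1 line at 1 dose and 1 time. Nothing says that the libraries of a group came from separate cultures, so p-values measure the spread between these libraries, which may be technical. The free text of NCD replicates 2 and 3 carries other numbers in place of 231, whereas their cell line field reads MDA-MB-231.

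A receptor tyrosine kinase is a single-pass membrane protein that binds a growth factor, a membrane-bound ligand or collagen outside the cell and carries a kinase domain inside it. Ligand binding brings receptors together, the kinase domains phosphorylate tyrosines, and adaptors that dock on these sites feed the RAS-MAPK, PI3K-AKT and PLCγ pathways. In breast cancer the family is known for EGFR and AXL in triple-negative cells and for ERBB2 in HER2-positive tumours. PTK7, RYK, EPHB6 and ERBB3 have no or little kinase activity of their own and signal with partners.

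Each library held between 18223594 and 21629653 counts. Of the 6 markers of the mesenchymal-like line, vimentin (VIM) stood at 3056 CPM with DMSO and 2638 CPM with NCD. CPM are counts scaled to a common library size by the TMM method. While 3 markers (CD44, MSN and ZEB1) fell, CAV1 and VIM were lower by smaller folds (log2 fold change -0.83 and -0.21). The summed level of the list went from 5433 to 5693 CPM with DMSO to 3399 to 3673 CPM with NCD. SPARC was near the floor in both groups, at 0.576 and 0.633 CPM. The luminal markers ESR1, PGR and CDH1 were under the filter on low counts, with means of at most 0.244 CPM, although KRT8 and KRT18 were abundant. Of the 8 luminal markers 5 were tested, and FOXA1 rose from near the floor, with means of 0.172 CPM with DMSO and 1.68 CPM with NCD. EPCAM, KRT8 and KRT18 were higher by smaller folds (log2 fold change 0.57, 0.53 and 0.27). The summed level of the luminal list ranged from 767 to 887 CPM with DMSO and from 976 to 1162 CPM with NCD. Markers of endothelium summed to 0.655 to 1.39 CPM over the libraries, PTPRC had a mean of at most 0.0189 CPM in a group, and COL1A2 and PDPN were at 0. CD68 was the abundant gene of the haematopoietic list, at 84.6 and 91.0 CPM, and COL1A1 and TUBB3 rose while MAP2 fell. The part of these marker changes in the receptor results was not tested.

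With NCD, 6 receptor genes rose and 11 fell. The rises were those of EPHB3, FGFR3, ERBB3, PDGFRB, TYRO3 and FGFR4, by 2.13 to 8.43 times. The falls were those of ROR1, IGF1R, EGFR, DDR2, EPHB2, MET, INSR, MERTK, CSF1R, RYK and AXL, by 2.14 to 34.2 times. A gene was counted as changed at a Benjamini-Hochberg adjusted p below 0.05 in edgeR's quasi-likelihood test over 15295 genes and an absolute log2 fold change above 1. Log2 fold changes are given with their standard error (SE), and coordinates and spans are those of GENCODE release 29 on GRCh38. Of the 47 members 29 passed the filter on low counts, and 12 of these did not meet both criteria. Over all tested genes 13.5% were higher and 17.5% were lower by the same rule. At the adjusted p alone, 10 members were higher and 15 were lower, against 35.3% and 34.1% of all tested genes. The libraries of both groups did not overlap for 24 of the 29 members, against 72.6% of all tested genes. The median log2 fold change was -0.30 for the 29 members and 0.04 for all tested genes. Fewer cells of a kind and less RNA per cell cannot be told apart in these libraries, and all changes are relative to the other genes. When libraries were scaled by their totals, the log2 fold changes of all genes shifted up by a median of 0.20, and 7 members were higher and 8 lower, so that 46.7% of the called members were higher instead of 35.3%. For all called genes that share was 56.2% instead of 43.6%.

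**Figure D1:**
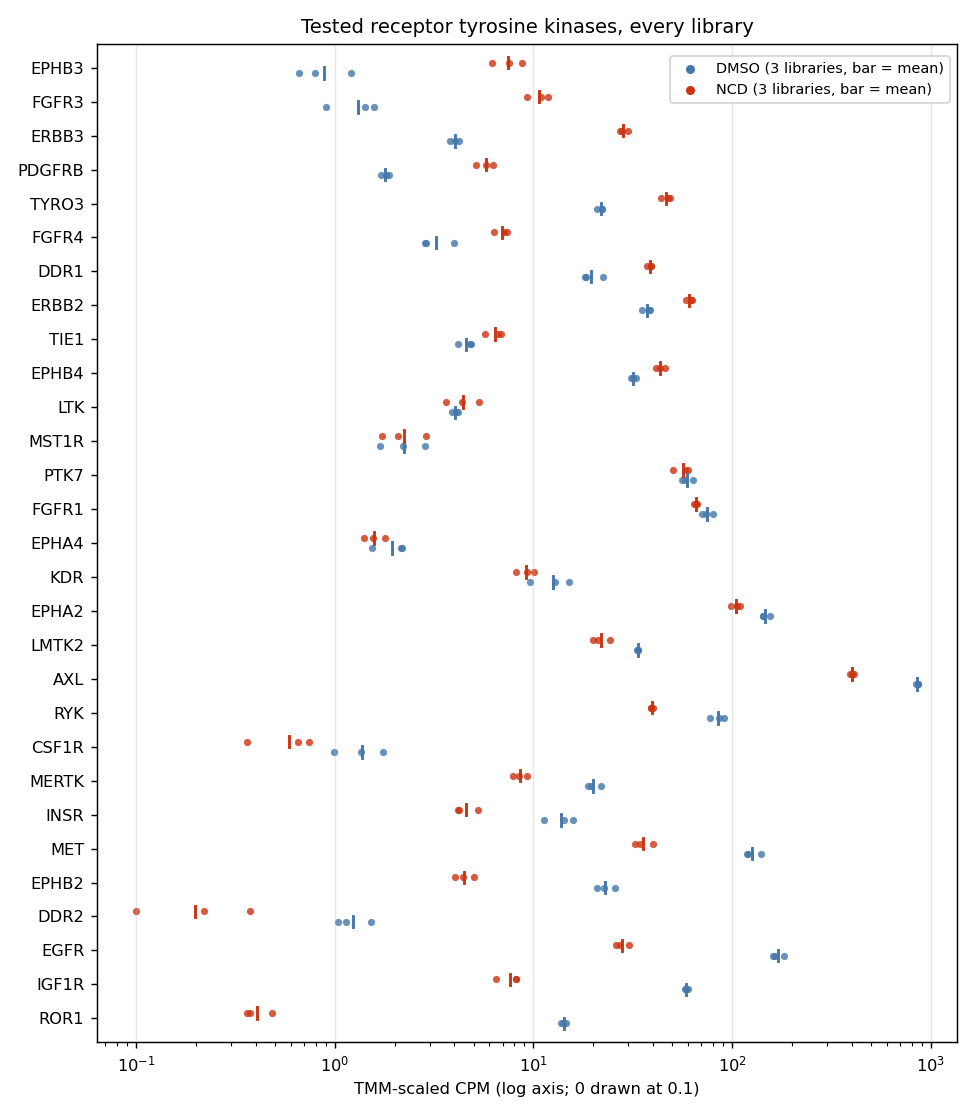
The plot of CPM by library shows the 29 tested receptors in the order of their log2 fold change, with the TMM-scaled CPM on a log axis, each point a library and each bar the mean of 3. The NCD points lie to the right of the DMSO points for EPHB3 to EPHB4 at the top and to the left of them for FGFR1, EPHA2 and the genes from LMTK2 down to ROR1, and the points of LTK, MST1R, PTK7, EPHA4 and KDR overlap. The DDR2 library with 0 counts is drawn at 0.1.

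The bases just upstream of 4 of these genes are shown, those of the 2 largest rises (EPHB3 and FGFR3) and of the 2 largest falls after ROR1 (IGF1R and EGFR). Each is the 250 bases before the start site in RefSeq on GRCh38.p14, 5′ to 3′ on the strand of the gene. Capitals mark GGGCGG, the core of the GC box, or its reverse complement CCGCCC. The windows are chr3:184561535-184561784, plus strand, for EPHB3, chr4:1793043-1793292, plus strand, for FGFR3, chr15:98648289-98648538, plus strand, for IGF1R, and chr7:55018767-55019016, plus strand, for EGFR.
EPHB3: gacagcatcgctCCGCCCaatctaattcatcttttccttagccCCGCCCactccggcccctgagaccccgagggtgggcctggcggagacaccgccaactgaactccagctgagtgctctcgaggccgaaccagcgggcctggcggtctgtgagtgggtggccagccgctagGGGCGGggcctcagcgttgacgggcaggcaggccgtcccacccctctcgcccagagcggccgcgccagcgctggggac
FGFR3: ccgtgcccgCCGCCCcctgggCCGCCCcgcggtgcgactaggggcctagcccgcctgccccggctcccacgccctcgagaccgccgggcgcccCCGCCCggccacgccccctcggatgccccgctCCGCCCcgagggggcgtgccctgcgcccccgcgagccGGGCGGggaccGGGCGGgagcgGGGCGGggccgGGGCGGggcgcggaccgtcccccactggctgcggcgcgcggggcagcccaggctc
IGF1R: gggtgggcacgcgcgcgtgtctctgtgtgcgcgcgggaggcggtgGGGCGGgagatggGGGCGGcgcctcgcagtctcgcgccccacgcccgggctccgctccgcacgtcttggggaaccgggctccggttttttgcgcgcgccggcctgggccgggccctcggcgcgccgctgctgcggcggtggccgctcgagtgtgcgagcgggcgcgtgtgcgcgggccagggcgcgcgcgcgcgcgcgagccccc
EGFR: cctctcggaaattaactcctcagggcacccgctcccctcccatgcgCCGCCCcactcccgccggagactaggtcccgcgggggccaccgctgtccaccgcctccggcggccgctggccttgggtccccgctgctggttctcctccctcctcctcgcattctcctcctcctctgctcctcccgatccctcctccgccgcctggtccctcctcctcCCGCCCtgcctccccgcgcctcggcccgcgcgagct
EPHB3 and FGFR3, which rose, hold the motif 3 and 8 times, and IGF1R and EGFR, which fell, hold it 2 times each. The windows of ROR1, the largest fall, and of DDR2, which also fell, are not shown and hold it 0 times. The DDR2 window ends at chr1:162630862, upstream of the GENCODE start of the gene at 162631373. Its 0 thus rests on a start site outside the GENCODE gene. None of the 4 windows holds TATAAA. RefSeq windows were matched by symbol for 44 of the 47 members, the exceptions being ERBB3, FGFR1 and FLT4. GGGCGG, counted on both strands, was present in 5 of the 5 risen members with a window, in 9 of the 11 that fell and in 34 of all 44 (77.3%), against 42.2% of the windows of 27305 genes. TATAAA was present in 3 of the 44 members (6.82%) and 11.2% of all windows, and CCAAT in 16 of the 44 (36.4%) and 33.0% of all windows, again on both strands. Of the 11 members tested and not called that have a window, 7 hold GGGCGG, and of the 17 not tested, 13 do (76.5%). The 27305 genes are all those with a window, including genes that were not tested. The median GC content of the windows was 79.6% for the members that rose, 72.0% for those that fell and 57.6% for all genes. It was 65.2% for the members tested and not called and 61.2% for those not tested. A single start site per gene, the most upstream, was used. For 38 of the 44 members the bases after it lie in a GENCODE transcript. The motif was thus found upstream of members that moved in either direction.

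EGFR fell and ERBB3 rose, whereas ERBB2 was higher without reaching the fold threshold and ERBB4 was hardly detected. EGFR (ErbB1; ENSG00000146648, chr7:55019021-55211628, plus strand), the receptor of EGF, TGF-alpha and amphiregulin, had 161, 183 and 165 CPM with DMSO and 27.4, 26.1 and 30.1 CPM with NCD. Every NCD library was far below every DMSO library, a 6.09-fold fall (log2 fold change -2.61 ± 0.08 SE, adjusted p = 2.65e-08, edgeR). ERBB3 (ENSG00000065361, chr12:56076799-56103505, plus strand), a neuregulin receptor with a weak kinase domain that signals in dimers with ERBB2, had 4.22, 4.02 and 3.78 CPM with DMSO and 28.0, 27.2 and 29.7 CPM with NCD. This was a 7.07-fold rise without overlap between groups (log2 fold change 2.82 ± 0.10 SE, adjusted p = 4.37e-08, edgeR). ERBB2 (ENSG00000141736, chr17:39687914-39730426, plus strand), the HER2 oncogene, which binds no ligand itself, had 38.4, 38.0 and 35.2 CPM with DMSO and 62.1, 62.6 and 58.3 CPM with NCD. All NCD libraries were above all DMSO libraries, with log2 fold change 0.71 ± 0.07 SE, adjusted p = 1.92e-05 in edgeR. Of its 10.32 kb of exon, 571 bases are shared with MIEN1 and 194 with PGAP3 on the opposite strand. The counts of these whole genes reached 45.8% (MIEN1) and 15.1% (PGAP3) of the highest count of ERBB2. The value of ERBB2 is uncertain, by the reads in the shared bases, if the counting ignored strand. ERBB4, the other neuregulin receptor, had 3, 2 and 1 counts with DMSO and 0 counts in each NCD library.

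MET fell, and its relative MST1R (RON), which binds MSP, did not pass the test. MET (ENSG00000105976, chr7:116672390-116798386, plus strand), the receptor of hepatocyte growth factor, had 119, 139 and 119.7 CPM with DMSO and 34.3, 32.5 and 39.9 CPM with NCD. The NCD libraries were all below the DMSO libraries, a 3.55-fold fall (log2 fold change -1.83 ± 0.10 SE, adjusted p = 4.12e-07, edgeR). MST1R stood at 2.24 ± 0.572 CPM with DMSO and at 2.23 ± 0.595 CPM with NCD (SD, n = 3), and the groups overlapped (adjusted p = 0.989, edgeR).

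The TAM receptors, which bind GAS6 and protein S and take part in clearing dying cells and in growth of tumour cells, moved in both directions. AXL and MERTK fell and TYRO3 rose. AXL (ENSG00000167601, chr19:41219203-41261766, plus strand) had 859, 865 and 845 CPM with DMSO and 409, 399.8 and 389.8 CPM with NCD. The 3 libraries of each group lay close together, and the fall was 2.14-fold (log2 fold change -1.10 ± 0.06 SE, adjusted p = 2.9e-07, edgeR). With library totals as the scale its log2 fold change was -0.90, under the fold threshold. MERTK (ENSG00000153208, chr2:111898479-112029561, plus strand) had 19.4, 21.8 and 18.9 CPM with DMSO and 7.86, 9.26 and 8.44 CPM with NCD, which was a 2.35-fold fall (log2 fold change -1.23 ± 0.11 SE, adjusted p = 8.23e-06, edgeR). TYRO3 (ENSG00000092445, chr15:41557675-41583586, plus strand) had 22.2, 22.2 and 20.9 CPM with DMSO and 47.5, 48.6 and 43.9 CPM with NCD. This was a 2.14-fold rise (log2 fold change 1.10 ± 0.08 SE, adjusted p = 1.91e-06, edgeR), and for neither MERTK nor TYRO3 did the groups overlap.

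Both insulin receptor family genes fell. IGF1R (ENSG00000140443, chr15:98648539-98964530, plus strand), the receptor of IGF1 and IGF2, had 58.6, 59.9 and 57.9 CPM with DMSO and 6.47, 8.12 and 8.16 CPM with NCD. All NCD libraries were below 8.2 CPM and all DMSO libraries above 57 CPM, a 7.77-fold fall (log2 fold change -2.96 ± 0.10 SE, adjusted p = 3.78e-08, edgeR). INSR (ENSG00000171105, chr19:7112255-7294034, minus strand), the insulin receptor, had 11.3, 15.8 and 14.3 CPM with DMSO and 5.24, 4.19 and 4.24 CPM with NCD. Its fall was 3.01-fold, with a wider spread in the DMSO group and no overlap (log2 fold change -1.59 ± 0.16 SE, adjusted p = 2.13e-05, edgeR).

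Of the 4 FGF receptors, FGFR3 and FGFR4 rose, FGFR1 stayed under the fold threshold and FGFR2 had at most 2 counts in a library. FGFR3 (ENSG00000068078, chr4:1793293-1808872, plus strand) had 0.904, 1.58 and 1.43 CPM with DMSO and 11.9, 10.9 and 9.23 CPM with NCD. It went from near 1 CPM to about 10 CPM in each NCD library, an 8.10-fold rise (log2 fold change 3.02 ± 0.20 SE, adjusted p = 1.7e-06, edgeR). FGFR4 (ENSG00000160867, chr5:177086886-177098144, plus strand), which with the co-receptor KLB binds FGF19, had 2.83, 2.89 and 4.0 CPM with DMSO and 6.34, 7.40 and 7.09 CPM with NCD. The groups did not overlap (log2 fold change 1.09 ± 0.17 SE, adjusted p = 0.000374, edgeR), and without DMSO replicate 1 the log2 fold change was 0.98, under the fold threshold. FGFR1 had 73.9, 79.8 and 70.8 CPM with DMSO and 66.2, 66.6 and 64.4 CPM with NCD. The difference was small (log2 fold change -0.19 ± 0.07 SE, adjusted p = 0.0314, edgeR), and its sign turned to a log2 fold change of 0.00997 with library totals as the scale. FGFR1 shares 138 exon bases with LETM2 on the opposite strand, whose count over the whole gene reached 39.3% of its own.

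In the family of PDGF receptors, KIT and the CSF1 receptor, PDGFRB rose and CSF1R fell, both from low levels. PDGFRB (ENSG00000113721, chr5:150113837-150155872, minus strand), a receptor of PDGF-BB and a known marker of fibroblasts and pericytes, had 1.87, 1.81 and 1.70 CPM with DMSO and 6.29, 5.79 and 5.13 CPM with NCD. It rose 3.20-fold without overlap (log2 fold change 1.68 ± 0.16 SE, adjusted p = 1.83e-05, edgeR). Beside it, the fibroblast marker list summed to 2.32 to 3.62 CPM with DMSO and 12.8 to 14.8 CPM with NCD, nearly all of it COL1A1, with COL1A2 and PDPN at 0 in every library and DCN and LUM at means of at most 0.0584 CPM. CSF1R (ENSG00000182578, chr5:150053291-150113372, minus strand), the macrophage colony-stimulating factor receptor, had 29, 24 and 18 counts with DMSO and 15, 7 and 16 counts with NCD, or 1.36 ± 0.381 CPM and 0.588 ± 0.201 CPM (SD, n = 3). This fall (log2 fold change -1.18 ± 0.35 SE, adjusted p = 0.0146, edgeR) had the largest adjusted p of the 11, beside a haematopoietic marker list in which PTPRC and CD3E had means of at most 0.0189 CPM. In the same list CD68 was at 84.6 and 91.0 CPM, and CD14 at 0.318 ± 0.187 and 0.698 ± 0.234 CPM (SD, n = 3; log2 fold change 1.11, adjusted p = 0.069, edgeR). With library totals the log2 fold change was -0.99. Without NCD replicate 2 it was -0.95 with adjusted p = 0.0544 in edgeR, and without DMSO replicate 1 it was -1.0 with adjusted p = 0.0548 in edgeR. The genes PDGFRA and KIT had at most 3 counts in a library, and PDGFRA shares exons with AC058822.1 on its own strand, which had up to 7.08 counts.

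Among receptors known from blood vessels, KDR and TIE1 were detected and neither reached the fold threshold. KDR (VEGFR2), the main VEGF-A receptor, had 9.64, 15.1 and 12.9 CPM with DMSO and 9.31, 8.17 and 10.0 CPM with NCD. The lowest DMSO library lay below the highest NCD library, with log2 fold change -0.45 ± 0.17 SE, adjusted p = 0.0363 in edgeR. TIE1, an orphan receptor that works with TEK, had 4.16, 4.81 and 4.82 CPM with DMSO and 5.68, 6.83 and 6.62 CPM with NCD. Its NCD libraries were all above its DMSO libraries (log2 fold change 0.47 ± 0.14 SE, adjusted p = 0.0149, edgeR). Of the endothelial markers PECAM1 was tested, at 0.650 and 0.598 CPM, and CDH5, VWF and CLDN5 had means of at most 0.363 CPM. FLT1 (VEGFR1) was under the filter with 0, 2 and 2 counts with DMSO and 7, 11 and 10 counts with NCD. The NCD to DMSO ratio of its summed counts, scaled to library size, was 5.77, with an exact 95% interval of 2.02 to 22.7 that covers counting error only. In a fit without the filter FLT1 was higher, at 2.45 ± 0.83 SE on the log2 scale (adjusted p = 0.00984, edgeR). FLT4 and TEK had at most 2 counts in a library.

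The Eph receptors, which bind ephrins on neighbouring cells and guide repulsion, adhesion and tissue boundaries, were split. EPHB3 rose and EPHB2 fell, while EPHA2, EPHB4 and EPHA4 did not reach the fold threshold. EPHB3 (ENSG00000182580, chr3:184561784-184582409, plus strand) had 1.21, 0.792 and 0.658 CPM with DMSO and 6.16, 8.74 and 7.51 CPM with NCD. It was near 1 CPM in every DMSO library and rose 8.43-fold, the highest of the 29 members (log2 fold change 3.08 ± 0.24 SE, adjusted p = 4.68e-06, edgeR). EPHB2 (ENSG00000133216, chr1:22710839-22921500, plus strand) had 22.7, 25.6 and 20.8 CPM with DMSO and 5.02, 4.04 and 4.43 CPM with NCD. It fell 5.10-fold without overlap (log2 fold change -2.35 ± 0.13 SE, adjusted p = 4.41e-07, edgeR), and on the scale of CPM per kilobase of exon EPHB3 trailed EPHB2 in every DMSO library and led it in every NCD library, with means with NCD of 1.65 ± 0.285 against 0.359 ± 0.0398 (SD, n = 3). EPHA2 (ENSG00000142627, chr1:16124337-16156087, minus strand), the main receptor of ephrin-A1, had 143, 154 and 144 CPM with DMSO and 109, 105 and 99.0 CPM with NCD. Every NCD library was lower, with log2 fold change -0.49 ± 0.06 SE, adjusted p = 0.000103 in edgeR. EPHB4, the receptor of ephrin-B2, had 32.7, 31.7 and 31.0 CPM with DMSO and 45.8, 43.4 and 41.3 CPM with NCD. All NCD libraries were higher (log2 fold change 0.45 ± 0.07 SE, adjusted p = 0.000441, edgeR). SLC12A9 on the opposite strand shares 69 exon bases with EPHB4, and its count over the whole gene reached 24.5% of that of EPHB4. EPHA4 stood at 1.95 ± 0.361 CPM with DMSO and 1.58 ± 0.198 CPM with NCD (SD, n = 3), with overlap and adjusted p = 0.283 (edgeR).

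The collagen receptors went apart. DDR2 (ENSG00000162733, chr1:162631373-162787400, plus strand), known from mesenchymal cells, fell from 19, 27 and 19 counts with DMSO to 5, 0 and 8 counts with NCD, or from 1.24 ± 0.256 to 0.197 ± 0.187 CPM (SD, n = 3). At such counts the standard error was the widest of the tested members (log2 fold change -2.57 ± 0.58 SE, adjusted p = 0.00358, edgeR), and the log2 fold change was -3.34 without NCD replicate 3 and -2.05 without NCD replicate 2. DDR1, known from epithelial cells, had 18.3, 22.3 and 18.1 CPM with DMSO and 39.1, 37.4 and 39.0 CPM with NCD. It lay just under the fold threshold (log2 fold change 0.98 ± 0.10 SE, adjusted p = 1.93e-05, edgeR) and passed it without DMSO replicate 2 (1.07) and with library totals (1.17).

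Of the receptors with links to Wnt signalling, ROR1 fell more than any other member, RYK fell and PTK7 did not pass the test. ROR1 (ENSG00000185483, chr1:63774022-64181498, plus strand), an embryonic receptor that binds Wnt5a, had 14.2, 14.5 and 13.8 CPM with DMSO and 0.481, 0.362 and 0.373 CPM with NCD. In counts this was 235, 257 and 252 with DMSO and 11, 7 and 8 with NCD, a 34.2-fold fall (log2 fold change -5.10 ± 0.16 SE, adjusted p = 2.92e-08, edgeR). ROR1-AS1 lies on the opposite strand without shared exon bases and had up to 15.4 counts. RYK (ENSG00000163785, chr3:134065303-134250744, minus strand), an atypical Wnt receptor, had 90.5, 77.2 and 85.7 CPM with DMSO and 39.2, 39.0 and 40.0 CPM with NCD. Its fall was 2.14-fold (log2 fold change -1.10 ± 0.07 SE, adjusted p = 1.78e-06, edgeR), with a log2 fold change of -0.90 under library totals. PTK7 had 58.0, 63.5 and 55.7 CPM with DMSO and 59.9, 58.2 and 50.6 CPM with NCD. The groups overlapped and the log2 fold change of -0.07 (adjusted p = 0.482, edgeR) changed to 0.12 with library totals. ROR2 had at most 2 counts in a library.

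Other detected members were LMTK2 and LTK. LMTK2, a kinase of endosomal traffic, had 33.0, 33.8 and 33.5 CPM with DMSO and 19.9, 21.1 and 24.2 CPM with NCD. It was lower in every NCD library without reaching the fold threshold (log2 fold change -0.62 ± 0.09 SE, adjusted p = 0.000233, edgeR). LTK, a relative of ALK, stood at 4.04 ± 0.136 CPM with DMSO and 4.44 ± 0.849 CPM with NCD (SD, n = 3), with overlap (adjusted p = 0.499, edgeR).

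Of the 18 members under the filter, EPHA3, EPHB6, NTRK2 and NTRK3 had 0 counts in all 6 libraries. A count of 0 allows up to 3 counts over a group, or 0.0571 CPM with DMSO and 0.0471 CPM with NCD. AATK, a relative of LMTK2, had 3, 2 and 10 counts with DMSO and 25, 11 and 9 counts with NCD, the highest of the 18. Its ratio of scaled summed counts was 2.47 (exact 95% interval of 1.35 to 4.78, for counting error only). The groups overlap, and BAIAP2 on the opposite strand shares 138 exon bases with AATK and had up to 1021 counts over the whole gene. AATK entered the test in 6 alternative fits and was called in 2 of them, without DMSO replicate 3 (log2 fold change 2.18, adjusted p = 0.0260, edgeR) and without NCD replicate 3 (1.53, adjusted p = 0.0478, edgeR). It was not called without DMSO replicate 1 (1.03, adjusted p = 0.218, edgeR), without DMSO replicate 2 (0.90, adjusted p = 0.243, edgeR), without NCD replicate 2 (1.40, adjusted p = 0.106, edgeR) or without the filter (1.28, adjusted p = 0.0521, edgeR). EPHA1 had 0, 5 and 6 counts with DMSO and 1, 2 and 1 counts with NCD, a ratio of 0.300 (0.0697 to 1.01), beside ZYX on the opposite strand with up to 3209 counts. EPHA7 had 7 counts in all in each group. The remaining members, EPHB1, RET and ALK among them, had at most 4 counts in any library. None of these was called in a fit without the filter.

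To compare genes with each other, CPM was divided by the length of all annotated exons of a gene in kilobases. On this scale the summed level of the 47 members was 289.9, 301 and 287 CPM per kilobase with DMSO and 169.8, 166 and 163 CPM per kilobase with NCD. The sum was lower in every NCD library, with means of 292 ± 7.39 with DMSO and 166 ± 3.44 with NCD (SD, n = 3). AXL was the most abundant receptor in all 6 libraries, and without it the sums were 126 ± 5.73 and 88.8 ± 1.61 CPM per kilobase (SD, n = 3). Its share of the summed level went from 56.9% ± 0.890 with DMSO to 46.6% ± 0.142 with NCD (SD, n = 3). EPHA2 stayed in second place by mean level, with a share that went from 12.1% ± 0.248 with DMSO to 15.1% ± 0.428 with NCD although its level was lower.
Below these, the order of the receptors changed. MET, the third in the DMSO group, went from 6.12% ± 0.402 with DMSO to 3.04% ± 0.382 with NCD and to rank 6. The share of EGFR went from 4.64% ± 0.217 with DMSO to 1.34% ± 0.121 with NCD, and its rank from 4 to 13. EPHB4 went from 1.69% ± 0.0562 with DMSO to 4.06% ± 0.126 with NCD and from rank 8 to rank 3, ERBB2 from 1.23% ± 0.0485 with DMSO to 3.55% ± 0.0870 with NCD and from rank 12 to rank 5. These are shares of a smaller sum, so part of each gain comes from the falls of others by construction. ERBB3, at rank 22 with DMSO, was at rank 11 with NCD. With the longest transcript as the length, EPHB4 went from rank 9 to rank 7, ERBB2 from rank 8 to rank 3, MET from rank 3 to rank 10 and EGFR from rank 4 to rank 12, and the ranks of AXL, EPHA2 and ERBB3 were as above. The share of ERBB2 was then 2.20% with DMSO and 5.96% with NCD. With the union of exons, some neighbours in this order did not differ beyond the spread, since with NCD, MET at 5.05 ± 0.547, RYK at 4.89 ± 0.0656 and FGFR1 at 4.75 ± 0.0837 CPM per kilobase (SD, n = 3) lay within 1 SD of MET. Receptors with a share of at least 1% numbered 12 in each DMSO library and 14 to 16 in the NCD libraries.

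**Figure D2:**
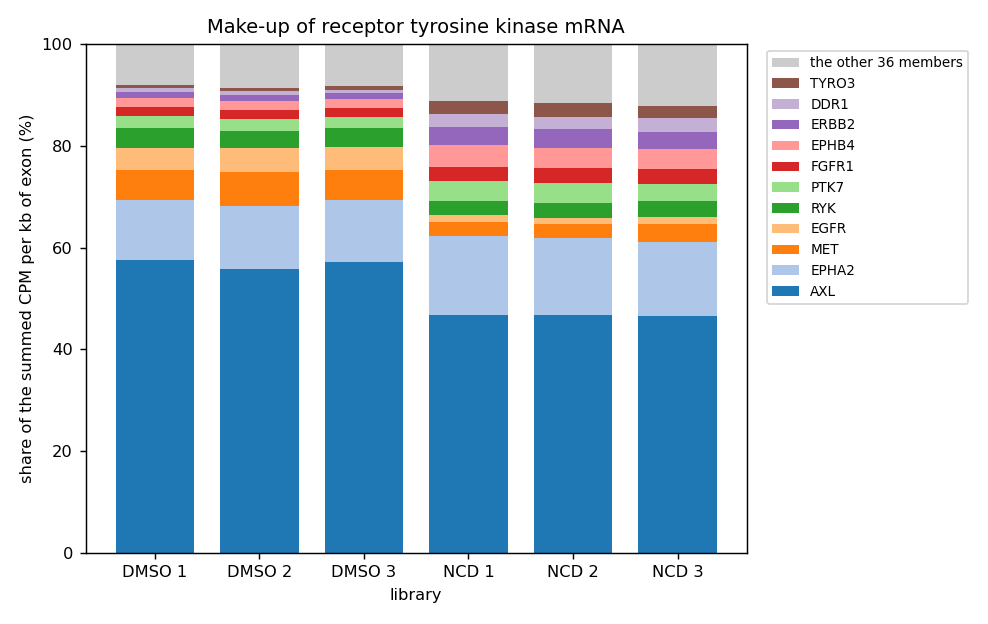
The bars show, for each of the 6 libraries, the share in percent of the summed CPM per kilobase of exon of the 47 members. The 11 receptors with a mean share of at least 2% in a group are in colour, AXL takes 46.6% on average with NCD instead of 56.9% with DMSO, and the grey remainder of 36 members is taller in the NCD libraries.

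The members that rose were short genes and those that fell were mostly long. Gene span, the distance from annotated start to end with introns, was 11.3 to 42.0 kb (median 23.25 kb) for the 6 that rose, 42.6 to 407.5 kb (median 181.8 kb) for the 11 that fell and 10.2 to 156.2 kb for the 12 others. Of the 15 members up to 50 kb, 6 rose and 1, AXL, fell, with a median log2 fold change of 0.71. Among all tested genes of that span 18.2% rose and 4.92% fell, with a median of 0.29. Of the 11 members above 100 kb none rose and 9 fell, with a median of -1.83, while 1.91% of all such genes rose and 67.0% fell, with a median of -1.46. The 3 members between 50 and 100 kb, FGFR1, PTK7 and CSF1R, included 1 fall. The members thus moved with span in the direction of the genes at large. Spearman's rho between span and log2 fold change was -0.849 over the 29 members and -0.503 over 14692 genes, where all points share the same libraries. The part of span in these changes was not tested.

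Set against the median of the tested genes in the same decile of spans, some members stood apart. ROR1 lay -3.01 (log2) from that median and AXL -1.07, MET -0.89, IGF1R -0.87 and CSF1R -0.83. EGFR at -0.52, EPHB2 at -0.26 and MERTK at -0.30 were closer to it. RYK and INSR fell less than the median of the last decile, by 0.99 and 0.50, and EPHA4 lay 1.79 above it. That decile runs from 153 to 2173 kb, and their spans of 185.4, 181.8 and 156.2 kb lie near its lower end. The decile below it had a median of -0.93, and beside that RYK (-1.10) and INSR (-1.59) were lower and EPHA4 (-0.30) higher. EGFR and EPHB2, with spans of 192.6 and 210.7 kb, are in the last decile too. EPHB3 at 2.75, FGFR3 at 2.59, ERBB3 at 2.50 and PDGFRB at 1.70 rose beyond genes of like span. These differences are descriptions with no test.

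**Figure D3:**
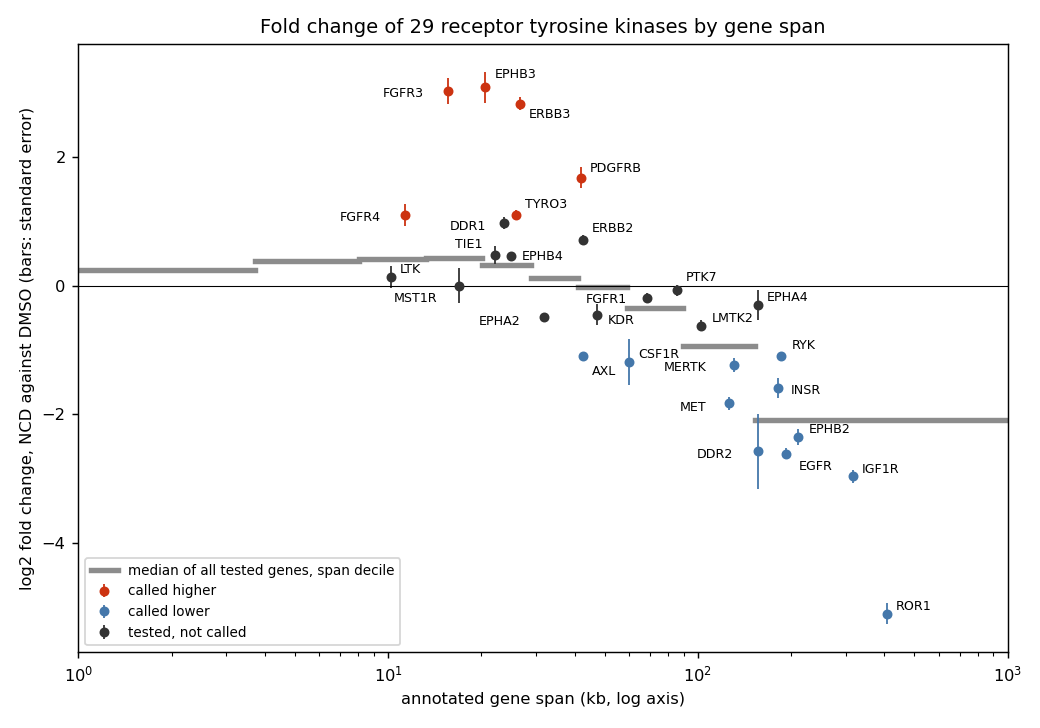
Each point is a tested receptor, with its annotated gene span in kb on a log axis and its log2 fold change with NCD, and bars are standard errors. Grey lines are the median of all tested genes in each decile of spans, which drops from 0.43 in the fourth decile to -2.09 in the last, and the receptors follow it with ROR1 far below and EPHB3, FGFR3 and ERBB3 far above.

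The genes around the receptors were described by lists of their ligands, co-receptors, adaptors and negative regulators. Of 73 ligand genes 40 were tested, 8 rose and 11 fell (20% and 27.5%), with a median log2 fold change of 0.11. Of the 11 ligand genes that fell, 9 span more than 100 kb. For comparison with this and the next lists, 13.5% of all tested genes rose and 17.5% fell. Of all tested genes above 100 kb, 67.0% fell. The part of span in the list changes was not tested. Among the falls with the smallest p, NRG1, the neuregulin that binds ERBB3 and ERBB4, went from 43.6 ± 4.77 to 5.81 ± 0.787 CPM (SD, n = 3; log2 fold change -2.90 ± 0.13 SE, adjusted p = 1.22e-07, edgeR). PDGFC, a ligand of PDGF receptors, had a log2 fold change of -2.48 and VEGFC, the ligand of FLT4, of -2.28. The rises included ephrin-A1 (EFNA1), from 6.0 ± 0.346 to 17.3 ± 1.25 CPM (SD, n = 3; log2 fold change 1.53 ± 0.11 SE, adjusted p = 2.19e-06, edgeR). Ephrin-B1 (EFNB1), a ligand of EPHB2 and EPHB3, had a log2 fold change of 2.06 and IGF2, a ligand of IGF1R and INSR, of 2.27. For the neuregulin pair the ligand NRG1, a gene of 1128.6 kb, thus fell while the receptor ERBB3 rose. IGF2 rose, from a mean of 0.645 to 3.13 CPM, while IGF1R fell. Amphiregulin (AREG, log2 fold change 1.44) rose, from a mean of 2.28 to 6.19 CPM, while EGFR fell. Other pairs moved the same way, with falls of TGF-alpha (TGFA, -1.62) and EGFR and of CSF1 (-1.16) and CSF1R. EFNB1 rose beside EPHB3, whereas EPHB2 fell. These pairs are examples. Of other EGFR ligands, HBEGF was lower, with means of 135.6 and 69.4 CPM (log2 fold change -0.97). EREG was higher, with means of 15.5 and 30.9 CPM (0.996), and both stayed under the fold threshold. EGF (-0.78) and BTC (0.66) had means of at most 3.20 CPM and were not called.

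Of 15 co-receptor genes 8 were tested, none rose and 3 fell, with a median of -0.57. Neuropilin-1 (NRP1), a co-receptor of VEGF receptors, fell from 163 ± 16.4 to 15.7 ± 2.20 CPM (SD, n = 3; log2 fold change -3.38 ± 0.12 SE, adjusted p = 3.83e-08, edgeR). IGF2R, which carries IGF2 to lysosomes, had a log2 fold change of -1.77 and neuropilin-2 (NRP2) of -1.01, just past the threshold. All 3 span more than 100 kb.

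Of 44 adaptor and effector genes 35 were tested, 3 rose and 10 fell (8.57% and 28.6%), with a median of -0.79. Of the 10 that fell, 9 span more than 100 kb. RASA1, a RAS GTPase-activating protein that docks on receptors, fell from 85.0 ± 10.8 to 8.27 ± 0.798 CPM (SD, n = 3; log2 fold change -3.36 ± 0.12 SE, adjusted p = 4.4e-08, edgeR). VAV2, a guanine nucleotide exchange factor, had a log2 fold change of -2.27 and GRB10, an adaptor that restrains IGF1R and INSR, of -2.06. DOK4, a docking protein, rose from 8.17 ± 0.870 to 27.9 ± 3.07 CPM (SD, n = 3; log2 fold change 1.77 ± 0.12 SE, adjusted p = 1.89e-06, edgeR), and the adaptor SH2B2 had a log2 fold change of 1.56.

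Of 21 negative regulators and shedding enzymes 20 were tested, 1 rose and 9 fell (5% and 45.0%), with a median of -0.89. ADAM10, a protease that releases EGF and betacellulin and cleaves receptors such as AXL and MET, fell from 213 ± 20.7 to 31.6 ± 3.78 CPM (SD, n = 3; log2 fold change -2.75 ± 0.10 SE, adjusted p = 6.12e-08, edgeR). ERRFI1 (MIG6), which binds and inhibits ErbB kinases, fell from 291 ± 14.5 to 92.1 ± 1.91 CPM (SD, n = 3; log2 fold change -1.66 ± 0.06 SE, adjusted p = 4.63e-08, edgeR) at a span of 21.9 kb. SH3KBP1 (CIN85), which joins CBL to receptors during endocytosis, had a log2 fold change of -2.34. The gene that rose was RNF41 (NRDP1), the ubiquitin ligase of ERBB3, from 32.0 ± 3.52 to 86.3 ± 1.78 CPM (SD, n = 3; log2 fold change 1.43 ± 0.09 SE, adjusted p = 8.06e-07, edgeR). ERBB3 mRNA and RNF41 mRNA were both higher in these libraries. Of the 9 genes that fell, 7 span more than 100 kb, and the part of span was not tested here either.

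Of 11 further human receptor tyrosine kinases outside the set, EPHA10 and STYK1 were tested and neither was called. EPHA10 stood at 0.433 ± 0.196 and 0.841 ± 0.146 CPM (SD, n = 3; adjusted p = 0.0516, edgeR) and STYK1 at 11.0 ± 0.487 and 7.31 ± 0.752 CPM (SD, n = 3; log2 fold change of -0.60, adjusted p = 0.00144, edgeR).

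**Figure D4:**
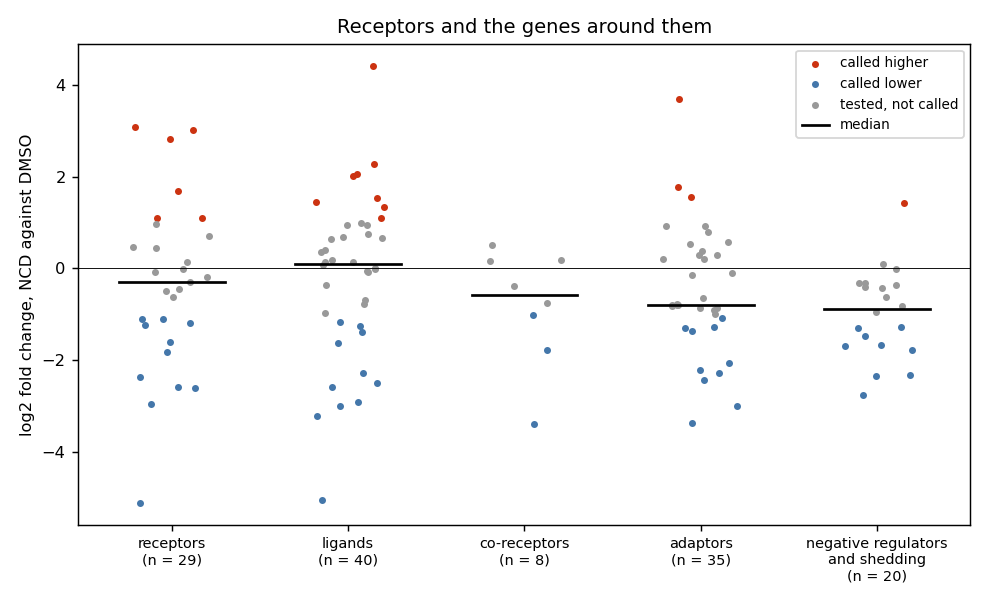
Log2 fold changes with NCD against DMSO are plotted for the 29 tested receptors and for the tested genes of 4 lists, each point a gene and each black line a median. Points spread to both sides of 0 for receptors and ligands, while the co-receptors hold 3 falls and no rise and the negative regulators 9 falls and 1 rise.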

How the data were processed

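RNA-seq of MDA-MB-231 cells was analysed as 3 DMSO and 3 NCD libraries, grouped by title. The authors aligned reads with HISAT2 and deposited expected counts per Ensembl gene from RSEM, without normalization. GRCh38 (hg38) is named in the submitters' processing notes. The annotation release and strandedness are not given in the sources used here. In each library 25 stray lines without a gene were skipped. Symbols matched 62666 of 63241 identifiers, and spans, exon lengths and coordinates came from GENCODE release 29 (58228 identifiers, at least 99.44% of counts).

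Expected counts were rounded and tested with edgeR 4.0.16 in R 4.3.3 (filterByExpr, TMM, glmQLFit, glmQLFTest, Benjamini-Hochberg adjustment). TMM factors were 0.911 to 0.949 with DMSO and 1.059 to 1.092 with NCD. CPM uses TMM-scaled library sizes, and standard errors were obtained from the F statistic as |log2 fold change| over its square root. No 2 libraries of a group agreed within sampling noise (chi-square per degree of freedom at least 2.086). The code was tested on simulated data. Members and lists were chosen with earlier results of these data known, so the counts per list are descriptions. Members with a mean of at least 5 CPM in either group are given per library, other tested members by mean, and untested members by counts. From each list the text names the 3 called genes with the smallest p in each direction (mean of at least 1 CPM). Further ligands (AREG, TGFA, CSF1, HBEGF, EREG, EGF and BTC) are named as examples beside their receptors. Alternatives were DESeq2 1.42.0, scaling by library totals or by 88 genes of ribosomal proteins, a stricter filter (10 counts everywhere) or none, the replicate block, each library left out, and the longest transcript as length. Promoter windows came from RefSeq, and Python 3.11.15 with scipy 1.17.1 made intervals and tables.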

Additional observations from a re-analysis of the deposited data

How the results depend on the processing

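The counts of members called stayed within 1.5 times of 6 higher and 11 lower under all 13 alternatives. They were 6 and 11 with DESeq2 (adjusted or unadjusted P), with ribosomal protein genes as the reference and with the replicate block, 7 and 11 without the filter, 7 and 8 with library totals, and 6 and 8 when every library had to hold at least 10 counts, where CSF1R, DDR2 and ROR1 were not tested. Leaving out each library in turn gave 5 to 7 higher and 10 to 11 lower. Over all genes 4736 were called, from 4653 to 5049 when a library was left out and from 3683 (at least 10 counts) to 5545 (no filter) otherwise. Of the 29 tested members 20 kept direction and call under every alternative that tested them. With library totals AXL (-0.90), CSF1R (-0.99) and RYK (-0.90) lost the call, DDR1 (1.17) gained it, and FGFR1 (0.00997), MST1R (0.19) and PTK7 (0.12) changed sign on the log2 scale. MST1R ranged from -0.27 to 0.19 when a library was left out, above 0 without NCD replicate 2 (0.05), without NCD replicate 3 (0.14) and without DMSO replicate 2, and LTK ranged from -0.027 (without NCD replicate 3) to 0.26. FGFR4 (0.98) and CSF1R (-1.0) lost the call without DMSO replicate 1 and CSF1R (-0.95) without NCD replicate 2, while DDR1 (1.07) gained it without DMSO replicate 2. The cause of these was not tested. With the longest transcript in place of the union of exons as the length, the share of AXL was 52.7% with DMSO and 40.6% with NCD, and leaving out a library gave 56.5% to 57.4% and 46.6% to 46.7%. By the same change of length the shares of ERBB2 (2.20% and 5.96%), FGFR1 (3.51% and 5.10%) and DDR1 (1.38% and 4.47%) moved by over 1.5 times. DDR2 stood at -3.34 without NCD replicate 3.

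Deviations of libraries with the same number correlated at 0.216, -0.185 and 0.023, which shows no consistent pairing by replicate number. With 3 libraries per group these values cannot exclude pairing. With the replicate block 4723 genes were called, and 6 members were higher and 11 lower. Members near or under 10 counts per library have wide errors, and counts of genes that overlap others on the opposite strand stay uncertain.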
